A study of Mus musculus with 5 samples.

Results

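The genes described here are 10 transport genes of gut epithelium that move chloride, bicarbonate and water, chosen by gene symbol from the 55471 genes of the deposited tables. They are 4 carriers (Slc26a2, Slc26a3, Slc12a2 and Slc4a4), 2 channels (Cftr and Best2), 3 carbonic anhydrases (Car1, Car2 and Car4) and 1 water channel (Aqp8). RNA was sequenced from frozen colon of male mice of the C57BL/6 strain at 11 weeks of age, on day 3 of colitis caused by TNBS, a chemical that makes gut proteins immunogenic. The mice had received propyzamide, an agricultural weed killer (3 libraries), or vehicle (2 libraries). Both groups carried TNBS colitis, and colon from mice without it was not analysed here. The labels give no dose, no segment of colon and no statement on whether tissue was pooled. They describe each library as 1 treated mouse and give no cage or litter, so the p-values speak only for the spread among these 5 libraries.

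Colonic epithelium absorbs salt and water and can also secrete them. Carbonic anhydrases make bicarbonate and protons from carbon dioxide and water. Slc26a3 then exchanges bicarbonate for luminal chloride at the apical membrane, in step with sodium-proton exchange. For secretion, Slc12a2 loads chloride and Slc4a4 loads bicarbonate across the basolateral membrane, and these ions leave through apical channels such as Cftr, with water following. In the mouse colon Best2 is known as a bestrophin channel of goblet cells, where it takes part in bicarbonate release.

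The libraries held 2706885, 2441897 and 1882235 estimated counts in propyzamide, and 1573700 and 2258237 in vehicle. Of these counts, 36.7 to 41.6% in propyzamide and 26.3 to 43.6% in vehicle lay in loci that resemble ribosomal RNA. Genes with a count numbered 18538, 20028 and 16871 in propyzamide, against 31685 and 27566 in vehicle. Among 1738 olfactory and vomeronasal receptor genes, 11.4%, 43.7% and 17.0% had a count in propyzamide, against 71.2% and 56.3% in vehicle. Low-level signal was thus broader in vehicle. A single count was worth 0.340 to 0.609 CPM (counts relative to library size, scaled between libraries by TMM). The labelled tissue was checked against its markers. The summed level of 12 pan-epithelial genes was 8458, 6765 and 6192 CPM in propyzamide, against 7303 and 6300.1 CPM in vehicle. Hoxd13 and Hoxd11, homeobox genes of the hind end of the gut, were at 0 counts in all 3 propyzamide libraries, whereas vehicle had 33.5 and 51.6 CPM of Hoxd13 and 8.27 and 24.4 CPM of Hoxd11. Hoxb13 was at 23.1, 16.4 and 4.87 CPM in propyzamide, against 165 and 179 CPM in vehicle, and these 3 of 5 posterior Hox genes tested were lower by edgeR. Hoxa13 ran the other way without passing, at 10.2, 13.9 and 10.3 CPM in propyzamide, against 4.55 and 9.08 CPM in vehicle. Summed smooth-muscle markers, 9 in all, were at 5514, 8213 and 9221 CPM in propyzamide, against 492 and 3146 CPM in vehicle. Summed small-intestine markers, 8 in all, were at 285, 962 and 573 CPM in propyzamide, against 23.2 and 32.3 CPM in vehicle. Fabp2 alone made up 228, 837 and 453 CPM of these sums in propyzamide, against 7.44 and 2.84 CPM in vehicle. With Slc10a2 and Alpi it was higher by the test, whereas the groups overlapped in the other 5 markers. The part of these differences in the results that follow was not tested. In bulk tissue, fewer cells of a type and less RNA per cell cannot be told apart. The second index sequence of the libraries was also 1 in propyzamide and another in vehicle, with 0 shared, so that index and treatment cannot be told apart.

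Of the 10 transport genes, 1 fell in propyzamide, 0 rose and 9 did not pass, which does not show that those 9 did not differ. All 10 passed the filter on low counts. The gene that fell was Best2. It passed that filter through its vehicle counts (104 and 38), since propyzamide had 15, 0 and 2. Over all 12024 genes tested with edgeR's quasi-likelihood test, 1.9% were called in either direction at a Benjamini-Hochberg adjusted p under 0.05, 0.69% higher and 1.21% lower. The fold changes of the 10 genes were positive for 3 and negative for 7, with a median of -0.32 on the log2 scale, against a median of -0.018 over all genes tested. In 3 of the 10 (Best2, Car1 and Cftr) the groups did not overlap in CPM, a share of 30% beside 37.5% of all genes tested. The count of 1 was 0 without vehicle replicate 1, without vehicle replicate 2 or without propyzamide replicate 3.

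**Figure D1:**
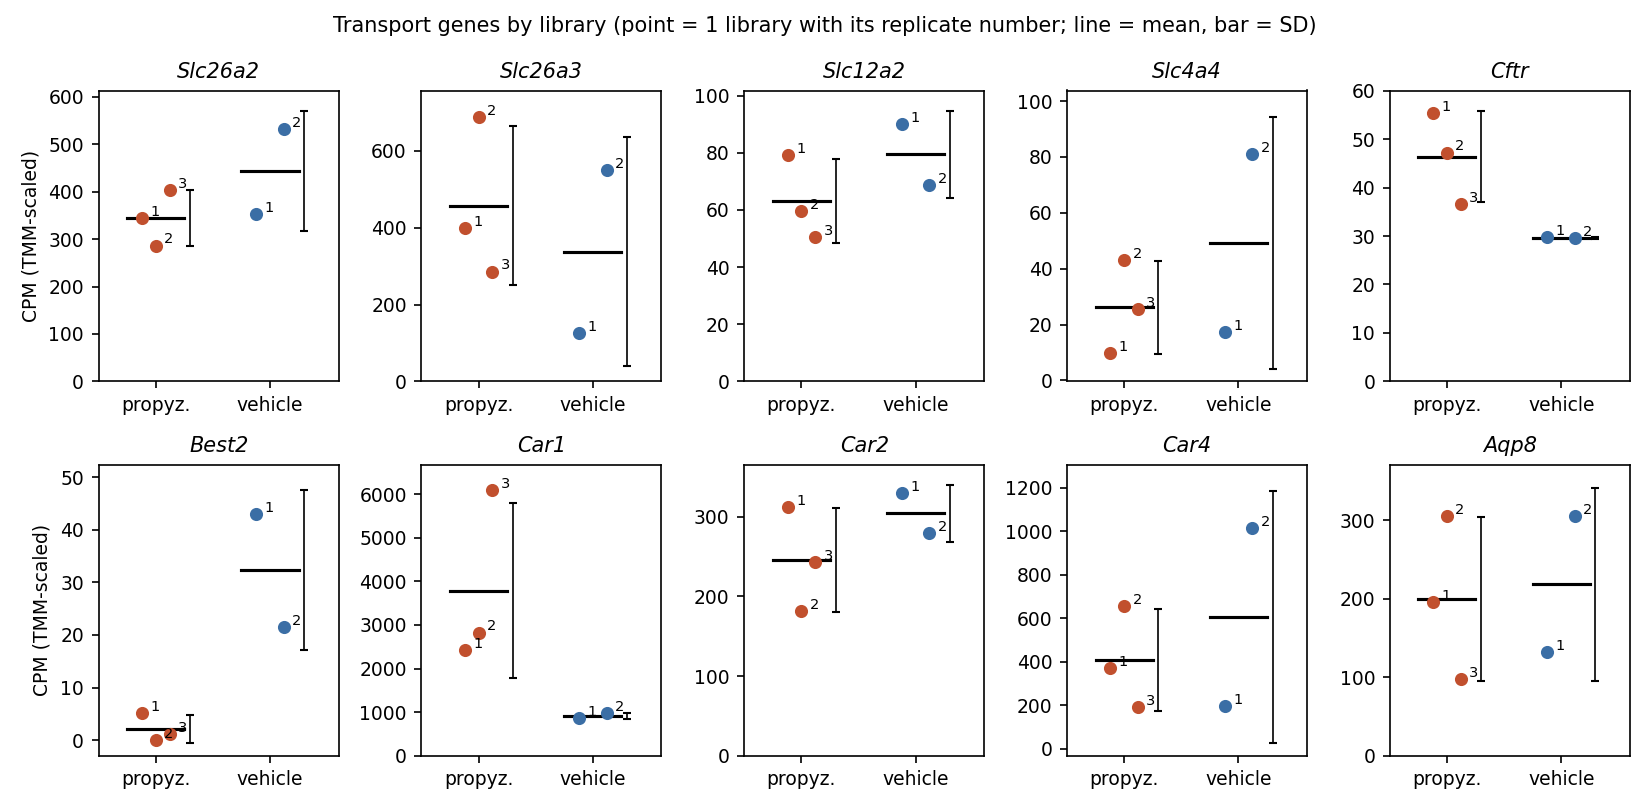
Levels of the 10 transport genes in CPM (vertical axes, linear) in each propyzamide library (left, red) and each vehicle library (right, blue), with replicate numbers, group means (lines) and SD (bars). Best2 lies between 0 and 5.10 CPM in propyzamide and at 21.6 and 43.0 CPM in vehicle, while Slc26a3, Car4, Slc4a4 and Aqp8 spread widely within each group.

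**Figure D2:**
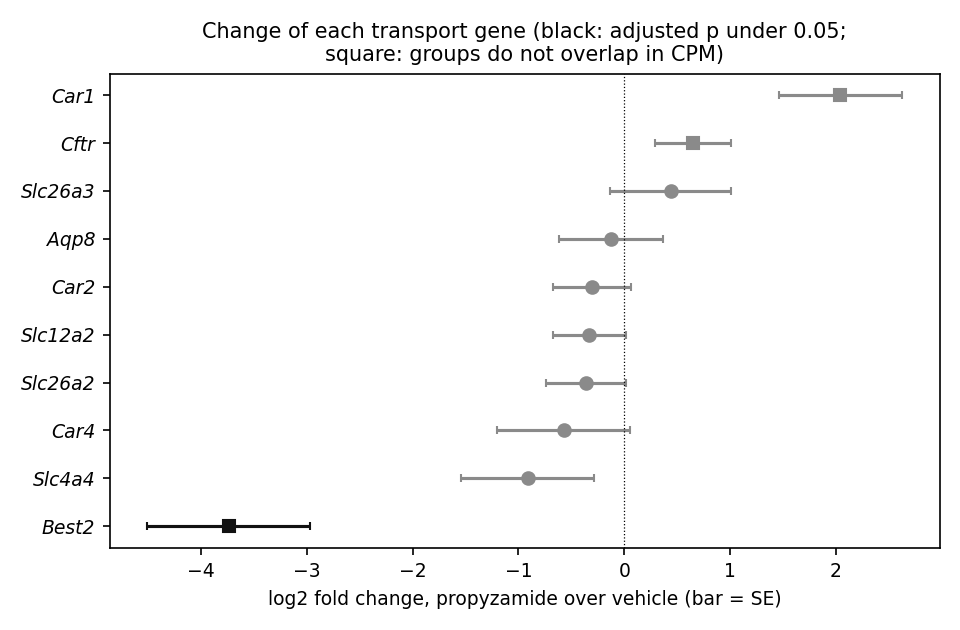
Log2 fold change of each transport gene, propyzamide over vehicle (horizontal axis), with its SE. Best2 at -3.74 is the only gene in black (adjusted p under 0.05), and squares mark Car1, Cftr and Best2, whose groups did not overlap.

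Among the channels, Best2 (ENSMUSG00000052819.6, chromosome 8 from 85007202 to 85014531, minus strand, GRCm38) had 5.10, 0 and 1.22 CPM in propyzamide, against 43.0 and 21.6 CPM in vehicle. These values come from 15, 0 and 2 counts in propyzamide and 104 and 38 counts in vehicle, and the groups did not overlap. The means were 2.11 ± 2.66 CPM in propyzamide (SD, n = 3) and 32.3 ± 15.2 CPM in vehicle (SD, n = 2). Best2 fell by 3.74 on the log2 scale (SE 0.77), a 13.4-fold difference, with an edgeR adjusted p of 0.0339. In propyzamide replicate 2, where no count was seen, the floor of 3 counts is 1.54 CPM. Of the 17 propyzamide counts 15 lay in replicate 1, and without that library the fitted log2 change was -5.74. Genes of olfactory and vomeronasal receptors, taken as background, predict 0.181, 1.26 and 0.363 counts for a gene of this length in propyzamide, against 2.33 and 1.51 in vehicle. Best2 no longer passed in edgeR when vehicle replicate 1 was left out (adjusted p = 0.392), nor when vehicle replicate 2 (0.107) or propyzamide replicate 3 (0.0842) was, nor with that background subtracted (0.0516). Over all 17 alternatives the adjusted p ran between 7.32e-07 and 0.392.

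Goblet-cell RNA varied beside Best2. The summed level of 10 goblet-cell markers, Best2 not among them, was 6972, 767 and 4567 CPM in propyzamide, against 9310.5 and 3201 CPM in vehicle. None of the 10 passed the test. Their log2 fold changes were negative for 7 and positive for 3, with a median of -0.96. For every 1000 counts of these markers there were 0.731, 0 and 0.267 counts of Best2 in propyzamide, against 4.62 and 6.74 in vehicle. Exact 95% counting intervals of this ratio were 0.409 to 1.21 in propyzamide replicate 1 and 0.0323 to 0.963 in replicate 3, against 3.77 to 5.60 and 4.76 to 9.26 in vehicle. In propyzamide replicate 2, which had 1495 goblet-marker counts, the floor of 3 counts is 2.01 per 1000. The groups did not overlap on this scale, which was not tested. The ratio depends on which markers enter the sum. Clca1, 1 of the 10, had 629, 48 and 265 counts in propyzamide, against 3952 and 825 in vehicle. Best2 had 15, 0 and 2 counts in the same propyzamide libraries, against 104 and 38 in vehicle. Muc2, the main secreted mucin of goblet cells and a member of that list, was at 3603, 349 and 2283 CPM in propyzamide and at 3333 and 1049.7 CPM in vehicle, with overlapping groups. Its log2 fold change of -0.077 does not stand for the list, in which Clca1 was at -2.98, Spink4 at -1.97 and Retnlb at 2.13.

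Cftr is the cyclic-AMP-regulated apical anion channel that is mutated in human cystic fibrosis (ENSMUSG00000041301.15, chromosome 6 from 18170687 to 18322768). It had 55.4, 47.2 and 36.5 CPM in propyzamide, against 29.8 and 29.5 CPM in vehicle. Every propyzamide library lay above both vehicle libraries in CPM. The log2 fold change was 0.65 ± 0.36 (SE), and it did not pass (edgeR adjusted p = 0.374). On the authors' TPM scale, which corrects for length but has no further scaling between libraries, the groups overlapped: 9.95, 6.31 and 4.71 TPM in propyzamide, against 9.70 and 3.73 TPM in vehicle. An annotated antisense gene, Gm15592, overlaps Cftr, and without a statement on strand reads of the pair cannot be told apart.

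Among the apical carriers, Slc26a3, the chloride-bicarbonate exchanger whose loss causes congenital chloride diarrhoea in humans (ENSMUSG00000001225.12, chromosome 12 from 31390871 to 31473917), had 398, 689 and 286 CPM in propyzamide. In vehicle it had 127 and 549.8 CPM. Propyzamide replicates 1 and 3 lay between the vehicle libraries and replicate 2 above both, and the vehicle libraries differed from each other 4.34-fold. A log2 fold change of 0.44 ± 0.57 (SE) did not pass (edgeR adjusted p = 0.750). It stood at -0.28 without vehicle replicate 1 and at 1.91 without vehicle replicate 2.

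Slc26a2, a sulfate and oxalate exchanger of the same family (ENSMUSG00000034320.14, chromosome 18 from 61192919 to 61211612), had 344, 286 and 404 CPM in propyzamide, against 354 and 533 CPM in vehicle. The groups overlapped, and the log2 fold change was -0.36 ± 0.38 (SE; edgeR adjusted p = 0.672). Within a library the ratio of Slc26a3 to Slc26a2 in CPM was 1.16, 2.41 and 0.708 in propyzamide, against 0.358 and 1.03 in vehicle, with overlapping groups. On the TPM scale Slc26a2 had 64.6, 37.6 and 44.75 TPM in propyzamide, against 114 and 72.5 TPM in vehicle, and there the groups did not overlap. The share of all genes apart in TPM was not computed. That scale lay lower in propyzamide, with a median log2 fold change over all genes of -0.39 with limma on log2(TPM + 1), against -0.018 in edgeR. The log2 fold change of Slc26a2 was 0.019 in edgeR without vehicle replicate 2.

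Among the basolateral carriers, Slc12a2, the sodium-potassium-chloride cotransporter (ENSMUSG00000024597.11, chromosome 18 from 57878678 to 57946821), had 79.2, 59.5 and 50.5 CPM in propyzamide, against 90.2 and 68.7 CPM in vehicle. Propyzamide replicate 1 lay between the vehicle libraries and the other two below both. At -0.33 ± 0.35 (SE) its log2 fold change did not pass (edgeR adjusted p = 0.676). It was negative under all 17 alternatives, from -0.75 to -0.14, with no call in any of them.

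Slc4a4, the electrogenic sodium-bicarbonate cotransporter (ENSMUSG00000060961.16, chromosome 5 from 88886818 to 89239653), had 9.86, 43.1 and 25.6 CPM in propyzamide, against 17.4 and 81.1 CPM in vehicle. The groups overlapped, with a 4.67-fold difference between the vehicle libraries. Its log2 fold change was -0.91 ± 0.63 (SE; edgeR adjusted p = 0.492), and it turned to 0.63 without vehicle replicate 2. On the TPM scale it had 1.97, 4.77 and 3.13 TPM in propyzamide, against 5.24 and 13.5 TPM in vehicle, without overlap. As given for Slc26a2, that scale lay lower in propyzamide over all genes, and the share of genes apart in it was not computed.

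Slc4a4 has more than 1 start. The human gene is known to have an upstream promoter and a downstream one inside the gene, from which the kidney form is made. The mouse annotation also holds transcripts from an upstream and a downstream start, and RSEM's counts were divided between them. Transcripts of the upstream start took 29, 81 and 41 counts in propyzamide, against 34.6 and 131 in vehicle. Those of the downstream start took 0, 3 and 1 counts in propyzamide, against 7.40 and 9.76 in vehicle. The upstream share was thus 100%, 96.4% and 97.6% of the gene's counts in propyzamide and 82.4% and 91.8% in vehicle. The receptor-gene background predicts 0.471, 4.89 and 1.28 counts for the whole of Slc4a4 in propyzamide, against 7.04 and 3.79 in vehicle. The difference in share was not tested.

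Among the carbonic anhydrases, Car1, a cytosolic enzyme (ENSMUSG00000027556.15, chromosome 3 from 14766216 to 14808368, minus strand), had the highest mean TPM of the 10 in either group, although Car4 was above it in vehicle replicate 2 (747 against 729 TPM). It had 2434, 2827 and 6098 CPM in propyzamide, against 869 and 969 CPM in vehicle. Every propyzamide library lay above both vehicle libraries, also on the TPM scale (2575, 2211 and 4607 TPM, against 1436 and 729 TPM in vehicle). The means were 3786 ± 2011 CPM in propyzamide (SD, n = 3) and 919 ± 70.5 CPM in vehicle (SD, n = 2). Its log2 fold change of 2.04 ± 0.58 (SE), or 4.12-fold, did not pass over all genes (edgeR adjusted p = 0.0845). It passed in DESeq2 (adjusted p = 7.58e-05), and in edgeR when genes of low count were kept (adjusted p = 8.05e-05). It was positive under all 17 alternatives, with adjusted p of 7.58e-05 to 0.412. Without propyzamide replicate 3 the log2 fold change was 1.52. Car1 is also made by red blood cells. Their markers Hba-a1, Hba-a2, Hbb-bs, Hbb-bt and Alas2 summed to 3.74, 17.5 and 18.9 CPM in propyzamide, against 9.10 and 22.1 CPM in vehicle. Alas2 was at 0 in all 3 propyzamide libraries and in vehicle replicate 1. An annotated processed pseudogene, Gm16399, overlaps Car1 on the same strand.

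Car2, the fast cytosolic enzyme of absorptive and secretory epithelia (ENSMUSG00000027562.12, chromosome 3 from 14886273 to 14900770), had 312, 181 and 244 CPM in propyzamide, against 329.6 and 279 CPM in vehicle, with overlapping groups, and a log2 fold change of -0.31 ± 0.37 (SE) did not pass (edgeR adjusted p = 0.722). The ratio of Car1 to Car2 in CPM was 7.79, 15.6 and 25.04 in propyzamide, against 2.64 and 3.47 in vehicle. The groups did not overlap in this ratio, which was not tested. The share of gene pairs apart in such ratios was not computed. Car1 and Car2 lie in a cluster of 4 anhydrase genes on chromosome 3, in the order Car13, Car1, Car3 and Car2, of which Car1 alone runs on the minus strand. Car13, another cytosolic member, had 21.4, 16.4 and 13.4 CPM in propyzamide, against 17.8 and 5.67 CPM in vehicle. Car3, an enzyme of muscle and fat, had 6.46, 21.0 and 78.5 CPM in propyzamide, against 1.24 and 5.11 CPM in vehicle. In propyzamide replicate 3 both Car1 and Car3 were at their highest.

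Car4, the enzyme anchored to the outer face of the apical membrane (ENSMUSG00000000805.18, chromosome 11 from 84957786 to 84966044), had 372, 657 and 189.9 CPM in propyzamide. In vehicle it had 196 and 1016 CPM, a 5.19-fold difference between replicates of 1 group and the widest among the 10 genes in vehicle. Propyzamide replicates 1 and 2 lay between the vehicle libraries and replicate 3 just below both. The log2 fold change was -0.57 ± 0.63 (SE; edgeR adjusted p = 0.689), and it stood at -1.34 without vehicle replicate 1 and at 1.11 without vehicle replicate 2.

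Aqp8, a water channel of surface colonocytes (ENSMUSG00000030762.11, chromosome 7 from 123462291 to 123468004), had 195, 305 and 97.4 CPM in propyzamide, against 132 and 305 CPM in vehicle. The groups overlapped. At -0.13 ± 0.49 (SE; edgeR adjusted p = 0.929) its log2 fold change was the smallest of the 10 in size, and the sign changed without vehicle replicate 2 (0.66) and without propyzamide replicate 3 (0.20).

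Slc26a3, Car4, Aqp8 and Slc4a4 had their highest propyzamide value in replicate 2 and their higher vehicle value in replicate 2. They were picked for this order after their values were seen. The share of all genes with the same order was not computed, and no label pairs the replicates. The summed goblet markers were the lowest of their group in the same 2 libraries, at 767 CPM in propyzamide replicate 2 and 3201 CPM in vehicle replicate 2. The smooth-muscle sums of these libraries were not the lowest, at 8213 CPM of 5514 to 9221 CPM in propyzamide and 3146 CPM against 492 CPM in vehicle. The part of these markers in the order of the libraries was not tested. Propyzamide over vehicle, 3 of the 4 genes changed sign when vehicle replicate 2 was left out and Slc26a3 when vehicle replicate 1 was. The 4 were grouped by their higher value in vehicle replicate 2, so the direction of these shifts was set by that choice. The 250 bases before the RefSeq start are printed for 3 of these 4 genes, Slc26a3, Car4 and Aqp8 (GRCm38.p6, plus strand). They lie at chr12:31437969-31438218, chr11:84957504-84957753 and chr7:123462044-123462293.
Slc26a3: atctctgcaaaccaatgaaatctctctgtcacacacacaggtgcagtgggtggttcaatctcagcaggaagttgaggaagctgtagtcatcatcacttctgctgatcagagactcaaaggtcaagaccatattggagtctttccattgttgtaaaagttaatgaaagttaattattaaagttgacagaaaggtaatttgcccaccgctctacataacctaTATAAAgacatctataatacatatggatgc
Car4: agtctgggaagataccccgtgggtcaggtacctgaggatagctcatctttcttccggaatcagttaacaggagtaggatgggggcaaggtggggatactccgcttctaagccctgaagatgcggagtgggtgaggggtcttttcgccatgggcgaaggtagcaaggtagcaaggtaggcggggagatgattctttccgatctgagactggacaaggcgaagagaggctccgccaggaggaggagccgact
Aqp8: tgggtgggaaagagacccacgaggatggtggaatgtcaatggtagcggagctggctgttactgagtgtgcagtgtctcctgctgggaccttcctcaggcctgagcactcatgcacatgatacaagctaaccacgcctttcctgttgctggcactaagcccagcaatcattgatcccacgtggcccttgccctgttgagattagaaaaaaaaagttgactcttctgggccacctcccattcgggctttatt
Capitals mark a match to 1 of 4 motifs, each searched on both strands. TTTATG is the core of CDX sites, and 10.8% of the 32851 RefSeq windows of this length hold it. The HNF4 core CAAAGTC is held by 3.84% of them. For the GATA core, AGATAA, the share is 9.99%. The TATA box, TATAAA, is held by 12.4%, and read backwards it shares its first letters with the CDX core. The only exact match to these letters in the printed windows was the TATA box 30 bases before the start of Slc26a3. Variants of the motifs were not searched, so sites of other letters can be present. The Slc26a3 window is 38.8% G and C, that of Aqp8 52.4% and that of Car4 56.4%. The windows of Slc4a4, at 82% and 48.8% G and C, held 0 matches and are not printed. That of Cftr, at 76.4%, also held 0 and is not printed. Windows were searched for 5 of the 10 genes, and Best2, Car1, Car2, Slc12a2 and Slc26a2 are named only.

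Levels can be compared between genes on the TPM scale. In propyzamide the means were 3131 TPM for Car1, 406 for Car4, 183 for Slc26a3, 151 for Aqp8, 137 for Car2, 49.0 for Slc26a2, 9.14 for Slc12a2, 6.99 for Cftr, 3.29 for Slc4a4 and 1.06 for Best2. The ranges over libraries did not overlap between Car1 and Car4, Car2 and Slc26a2, or Slc26a2 and Slc12a2, whereas the other neighbours in this order overlapped. In vehicle the order again began with Car1 at 1082 TPM and Car4 at 529 TPM, and their ranges overlapped only narrowly, from 729 to 1436 TPM for Car1 and from 311 to 747 TPM for Car4. Best2 stood in place 7 in vehicle, at 24.2 ± 21.4 TPM (SD, n = 2), and in place 10 in propyzamide, at 1.06 ± 1.40 TPM (SD, n = 3). Car1 made up 81.1%, 74.9% and 94.1% of the summed TPM of the 3 anhydrases in propyzamide, against 68.6% and 45.3% in vehicle. That sum was 3176, 2951 and 4896 TPM in propyzamide, against 2092 and 1608 TPM in vehicle. Both the sum and the share of Car1 were apart between the groups, without a test. Car1 enters both, so they largely restate its own difference, which did not pass in edgeR's main test.

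**Figure D3:**
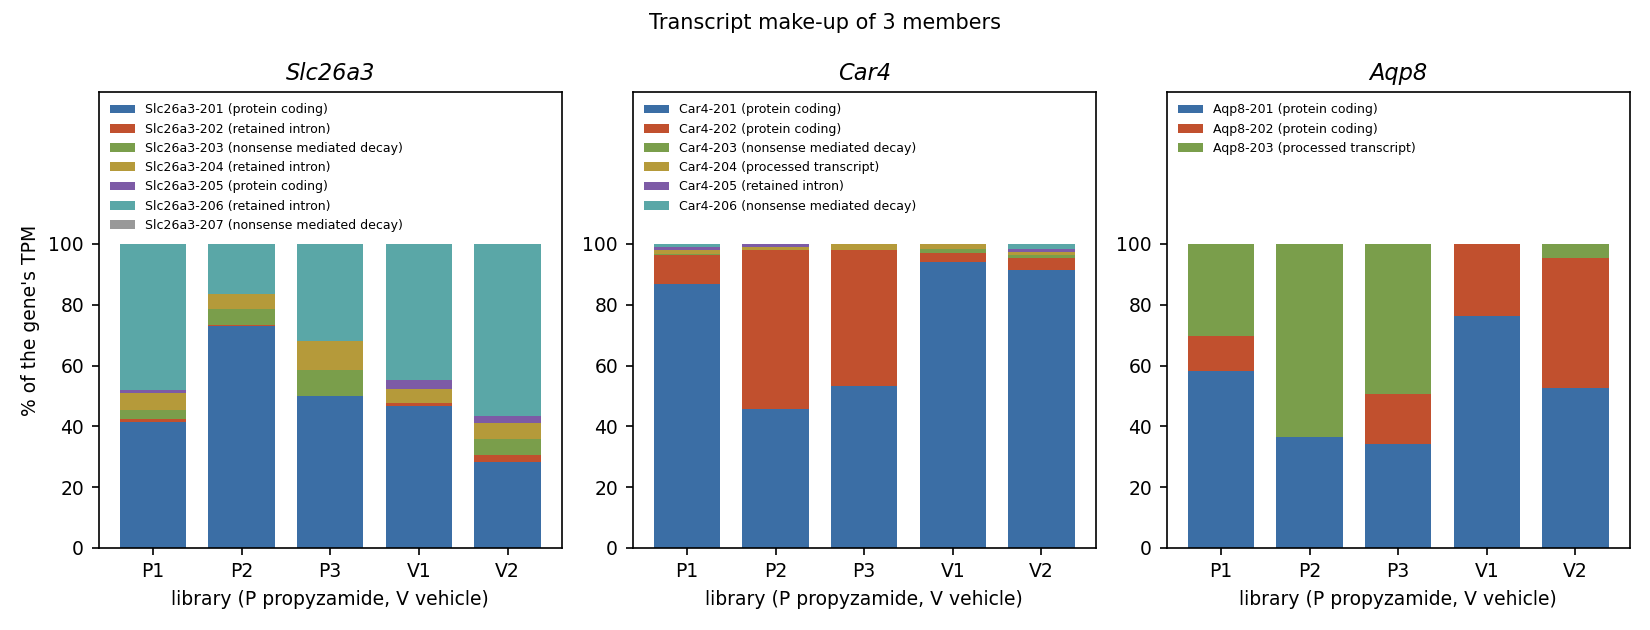
Share of each annotated transcript in its gene's TPM (vertical axis, %) for Slc26a3, Car4 and Aqp8 in propyzamide libraries P1 to P3 and vehicle libraries V1 and V2. Car4-202 and Aqp8-203, named after these shares were seen, take larger shares in every propyzamide library than in either vehicle library.

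The deposited tables divide each gene among transcripts. Car1-201 took 99.9 to 100% of Car1, and Car2-201 took 95.8 to 100% of Car2. Car4 divided differently. Car4-202, a 732-base coding transcript that starts near the gene's end, took 9.57%, 52.6% and 44.7% of the TPM of Car4 in propyzamide, against 2.84% and 4.04% in vehicle. Its estimated counts were 57.8, 477 and 94.1 in propyzamide, against 7.04 and 39.2 in vehicle. Aqp8-203, a noncoding transcript that lacks the gene's first bases, took 30.4%, 63.6% and 49.3% of the TPM of Aqp8 in propyzamide, against 0% and 4.73% in vehicle. Its counts were 142, 338 and 68.0 in propyzamide, against 0 and 19.5 in vehicle. For both transcripts the groups did not overlap. Both were named after their shares were seen, and the share of all transcripts that were apart was not computed. Each starts inside its gene, and how evenly reads covered the genes in each library was not examined. For Slc26a3 they did: the coding Slc26a3-201 held 41.4%, 72.9% and 49.9% in propyzamide and 46.7% and 28.3% in vehicle, and the retained-intron transcript Slc26a3-206 held 48.0%, 16.2% and 32.1%, against 44.8% and 56.6% in vehicle. In Best2 the 15 counts of propyzamide replicate 1 were all assigned to Best2-203 and the 2 counts of replicate 3 to Best2-202, which held 88.3% and 85.3% in vehicle. These shares are RSEM estimates from short reads that most transcripts of a gene share, and they were not tested.

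**Figure D4:**
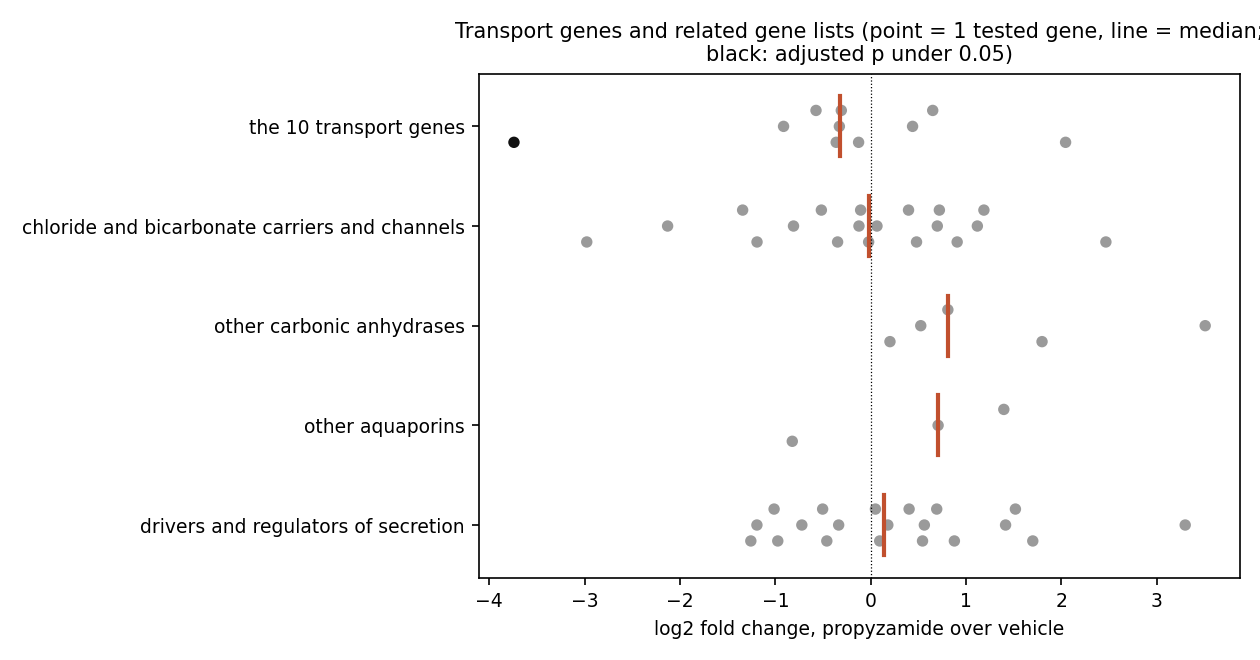
Log2 fold change, propyzamide over vehicle (horizontal axis), of the 10 transport genes and of the tested genes of 4 related lists, with the median of each list (red line). Best2 is the only black point (adjusted p under 0.05), and the list medians run from -0.32 for the transport genes to 0.81 for the other carbonic anhydrases.

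Of the other genes of ion and water transport, set out in 4 lists of 31, 13, 11 and 23 genes, none of those tested passed in edgeR: 0 of 19 other chloride and bicarbonate carriers and channels, 0 of 5 other carbonic anhydrases, 0 of 3 other aquaporins and 0 of 20 drivers and regulators of secretion. At an unadjusted p under 0.05 in edgeR the counts were 7, 2, 1 and 5, beside 18.2% of all genes tested. DESeq2 called 1, 1, 0 and 3 at its adjusted p, beside 2.46% of the 16332 genes to which it gave one. The median log2 fold changes were -0.022, 0.81, 0.71 and 0.14, against -0.018 over all genes tested. With all genes kept they were -0.39, -1.21 and -2.65 for the first 3 lists, where the median of all genes was -1.14, and that of the drivers was -0.20 without vehicle replicate 1 and -0.12 with limma on log2(TPM + 0.1). The groups were apart in CPM for 10 of 19, 2 of 5, 3 of 3 and 13 of 20 of these genes, beside 37.5% of all genes tested.

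In the first list the smallest p-values belonged to Clca4a and Clca1, proteins once named as calcium-activated chloride channels. Clca4a had 224, 582 and 145 CPM in propyzamide, against 45.1 and 69.8 CPM in vehicle (log2 fold change 2.47 ± 0.58, SE; edgeR adjusted p = 0.0504). Its close copy Clca4b can share reads with it, so the split between them is uncertain. Clca1, a product that goblet cells secrete, had 214, 24.6 and 161 CPM in propyzamide, against 1634 and 468 CPM in vehicle (-2.98 ± 0.73; edgeR adjusted p = 0.0521). Clca1 also belongs to the goblet list above. In CPM it was lower in every propyzamide library than in either vehicle library. In TPM the groups overlapped, at 186, 20.4 and 119.5 TPM in propyzamide, against 782 and 171 TPM in vehicle. The log2 fold change of Clca1 was -1.57 with the transcript length offset and -1.83 without vehicle replicate 1. Over the 17 alternatives Clca1 was called in 5 and Clca4a in 6.

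Among the other anhydrases, Car12, a transmembrane enzyme, had 31.6, 18.0 and 36.5 CPM in propyzamide, against 7.44 and 9.08 CPM in vehicle (log2 fold change 1.80 ± 0.48, SE; edgeR adjusted p = 0.0671). Car3, described above, stood at 3.51 ± 0.99 (edgeR adjusted p = 0.0815), and at 2.14 without propyzamide replicate 3. Of the water channels Aqp4, a basolateral channel, had 205, 98.0 and 128 CPM in propyzamide, against 84.8 and 23.8 CPM in vehicle (1.40 ± 0.52; edgeR adjusted p = 0.175). In TPM the groups of Aqp4 overlapped, at 47.9, 16.4 and 21.8 TPM in propyzamide, against 44.6 and 5.47 TPM in vehicle. With vehicle replicate 1 left out its log2 fold change was 2.57, with vehicle replicate 2 left out 0.82, and with the transcript length offset 0.85. Aqp11, an intracellular channel, had 5.44, 8.21 and 7.31 CPM in propyzamide, against 11.6 and 13.1 CPM in vehicle (-0.82 ± 0.54; edgeR adjusted p = 0.462). The 8 aquaporins that were not tested reached at most 1.83 CPM in any library.

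Among the drivers and regulators, Prkg2, the kinase that passes the cyclic-GMP signal of guanylin to Cftr, had 5.10, 13.9 and 26.2 CPM in propyzamide, against 1.24 and 1.70 CPM in vehicle (log2 fold change 3.30 ± 0.85, SE; edgeR adjusted p = 0.0622). Slc9a2, an apical sodium-proton exchanger, had 89.4, 215 and 94.97 CPM in propyzamide, against 36.0 and 46.0 CPM in vehicle (1.70 ± 0.45; edgeR adjusted p = 0.0681). In both the groups were apart, and neither passed in edgeR with the filter on low counts. Both passed in DESeq2 (adjusted p = 0.0342 for Prkg2 and 0.0151 for Slc9a2), and each was called in 4 of the 17 alternatives. In TPM Prkg2 had 1.28, 3.14 and 5.65 TPM in propyzamide, against 1.20 and 1.14 TPM in vehicle. Its log2 fold change was 1.96 with the transcript length offset and 0.87 with limma on log2(TPM + 1), and that of Slc9a2 ran from 1.13 to 1.94. Markers of absorptive colonocytes other than the 10 genes, also 10 in number, summed to 7351, 9363 and 6971 CPM in propyzamide, against 2161 and 1995 CPM in vehicle. Guca2a alone made up 2863, 3843 and 2440 CPM of these sums in propyzamide, against 256 and 251 CPM in vehicle. By the test 3 of 10 were higher and 0 lower, beside 0.69% of all genes tested called higher. Their log2 fold changes were positive for 9 and negative for 1 (Cdhr5, -0.47), with a median of 1.94. Slc26a3, Car4 and Aqp8, which such cells also make, overlapped between the groups, as given above.

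**Figure D5:**
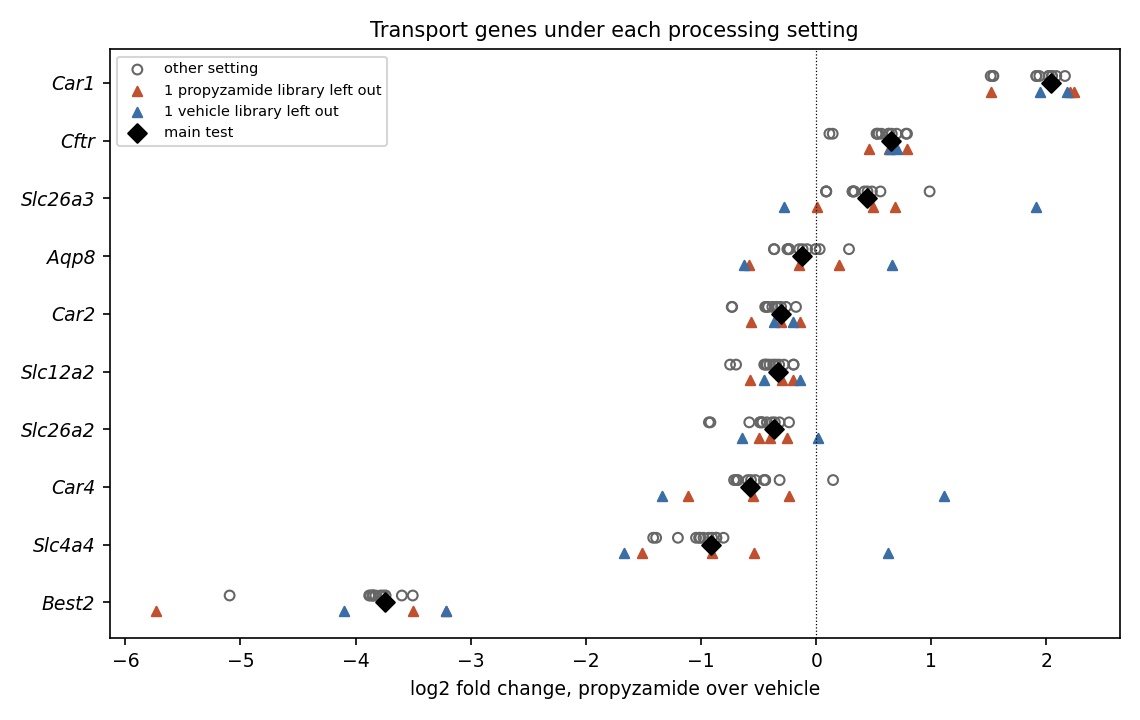
Log2 fold change of each transport gene, propyzamide over vehicle (horizontal axis), in the main test (diamonds), with 1 propyzamide or 1 vehicle library left out (triangles) and under the other settings (circles). Best2 stays below 0 and Car1 above 0 throughout, while leaving out 1 vehicle library puts Car4 at -1.34 or at 1.11.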

How the data were processed

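Per the labels' protocols, Trizol was used for RNA and SMART-Seq2 for the libraries. Each library has 1 deposited RSEM table of transcripts, whose estimated count and TPM columns were used and whose FPKM and percent columns were not, per the file headers. Transcript lengths, including the effective length, are also in the deposited tables (unit: other). RSEM, kallisto and GRCm38 are named, without roles, per the submitters' processing notes. For annotation release and strand, no source used here gives a statement.

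The 142647 transcripts belong to 55471 genes, whose estimated counts were added up and rounded. Symbols matched 99.4% of gene identifiers, compared without version. Coordinates and transcript types come from GENCODE M21 (GRCm38). Genes were tested with edgeR 4.0.16 in R 4.3.3 (filterByExpr, TMM, quasi-likelihood test, Benjamini-Hochberg over 12024 genes, threshold 0.05) in 1 model of all 5 libraries. The SE comes from the F statistic. The step was tested on simulated counts. Alternatives used limma 3.58.1 on log2(TPM + 1) and log2(TPM + 0.1), and DESeq2 1.42.0. Intervals and floors (3 counts) cover counting error only, since reads carry no molecular identifiers.

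The 10 genes and the lists were chosen with earlier results of these data known. All 10 genes are named whatever their values, and from each related list those past the threshold (at most 6) or, with none, the 2 of smallest p. Of the cell-list markers, 1 gene is not reported here. Genes named outside this rule were chosen after their values were seen. No pair of libraries was a duplicate (chi-square per degree of freedom 16.0 to 48.1 where both libraries together had 10 counts or more).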

Additional observations from a re-analysis of the deposited data

How the results depend on the processing

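Each result was recomputed under 17 alternatives, 5 of which leave out 1 library. Leaving out a vehicle library leaves 1, which is then assumed to vary like the propyzamide libraries. The count of genes called, 229 in the main test, was 368 scaled to pan-epithelial genes, 1327 without a filter on low counts, 148 at 10 CPM in 2 libraries, 401 with DESeq2, 490 with limma on log2(TPM + 1), 639 with the replicate block, 362 without rRNA-like and mitochondrial genes and 94 with background subtracted, and 36 to 499 with 1 library left out (36 and 55 without vehicle replicates 1 and 2, 499 and 78 without propyzamide replicates 1 and 3). Of the 10 transport genes, 1 in the main test, 2 were called without a filter and with DESeq2, 0 with background subtracted, and 0 to 1 with 1 library left out. Of the related lists, 0 in the main test, 1 gene was called with upper-quartile scaling, 1 with either limma fit and 1 without rRNA-like and mitochondrial genes, 2 scaled to pan-epithelial genes, 9 without a filter, 5 with DESeq2, 8 with the replicate block and 0 to 6 with 1 library left out (6 without propyzamide replicate 1, 2 without propyzamide replicate 2). The share of lower calls was 63.8% in the main test, 74.8% with upper-quartile scaling, 73.6% scaled to pan-epithelial genes, 46.6% with DESeq2, 86.5% and 85.6% with limma and 49.3% with the block, 52.1% with background subtracted and 36.4% without vehicle replicate 2. The median of all genes was -0.39 and -0.47 with limma and -0.14 with upper-quartile scaling, and -1.14 and -1.26 without a filter and with DESeq2.

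Of the 10 genes, the sign changed for Aqp8 with the transcript length offset (0.030) and the replicate block (0.28), and for Car4 with the block (0.15). With 1 library left out, Slc26a3 ran from -0.28 to 1.91, Slc26a2 from -0.65 to 0.019, Slc4a4 from -1.67 to 0.63, Car4 from -1.34 to 1.11 and Aqp8 from -0.63 to 0.66. The causes were not tested. Best2 was called in 13 of 17 alternatives and Car1 in 2. The replicate numbers do not pair the samples by any label. Deviations of same-numbered libraries correlated at 0.17 and 0.15, over only 2 pairs, and propyzamide replicate 3 has no partner. At this depth Best2, the gene of lowest level in propyzamide, rests on 17 counts there and 142 in vehicle.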
